A study of Tachycineta bicolor and Sialia sialis and Hirundo rustica with 121 samples.

Results

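Old World sparrows (Passeridae) were represented by the Eurasian Tree Sparrow (Passer montanus) and the House Sparrow (Passer domesticus), and their brain expression was set against that of 8 other songbird species. The 2 species gave 24 birds and the others 97. A gene was called separated when the mean level of each sparrow species lay above all 8 other species means, or when both lay below them. Of 10637 genes tested, 1107 were separated (10.4%), 605 with the sparrows higher (5.69%) and 502 with the sparrows lower (4.72%).

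The series measured RNA from the ventromedial telencephalon of wild adults of both sexes in the Midwestern United States, taken while birds set up territories and built nests and before egg laying. Its design contrasts nesting strategies within families. Eurasian Tree Sparrows are labelled obligate cavity nesters and House Sparrows facultative cavity nesters, with 12 birds of each. The other birds belonged to 4 families. Swallows (Hirundinidae) were 13 obligate cavity nesting Tree Swallows and 12 open cup nesting Barn Swallows. Wrens (Troglodytidae) were 12 obligate House Wrens and 12 facultative Carolina Wrens, wood warblers (Parulidae) were 12 obligate Prothonotary Warblers and 12 open cup nesting Yellow Warblers, and thrushes (Turdidae) were 12 obligate Eastern Bluebirds and 12 open cup nesting American Robins. Each bird is a separate sample, but family is replicated only by 2 sparrow species, so any property that both share cannot be told apart from any other.

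The ventromedial telencephalon of birds holds nuclei of the social behaviour network, among them nucleus taeniae, the counterpart of the mammalian medial amygdala, and these cells carry receptors for sex steroids and neuropeptides. Old World sparrows are social seed eaters that often live beside people. Expression profiles of related species diverge after they split, and the species of a family share the part of that history that came before their own split.

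The counts per bird summed to between 4526413 and 6866041 in sparrows, against 4555827 to 7549296 in the other birds. The counts are headed as zebra finch, a species of none of the 5 families, but the reference used for the reads of each species is not given. Each difference between families includes any difference in read matching, which was not tested. TBR1, a transcription factor of glutamatergic telencephalic neurons that was read as a check of the labelled tissue, had 9.35, 17.9 and 37.2 CPM in Eurasian Tree Sparrows and 1.58, 2.28 and 4.14 CPM in House Sparrows, against 0.359, 9.14 and 68.6 CPM in the other birds (lowest, median and highest bird). TBR1 was present in every bird, with a species mean of 20.5 CPM in the Eurasian Tree and 2.41 CPM in the House Sparrow. The other species lay between 2.67 and 29.1 CPM, with both warblers, Carolina Wrens and Eastern Bluebirds at 3.34 CPM or less. Whether the part of the telencephalon taken differed between species was not tested. Mitochondrially encoded genes took a mean of 20.1% of counts in Eurasian Tree Sparrows and 10.1% in House Sparrows, against 6.12% in Eastern Bluebirds to 20.2% in Prothonotary Warblers among the other species, so both sparrows lay within the range of the others. Doubt fell on 6 libraries. In all of them but Barn Swallow female 3 the profile stood apart or the W-linked gene CHD1W went against the labelled sex. Barn Swallow female 3 had 67.0 CPM of CHD1W and a median Spearman correlation of 0.933 with its own species. The lowest such correlation among the 115 libraries not doubted was 0.929. House Sparrow female 3 was the only sparrow of the 6. Its median Spearman correlation with the other House Sparrows was 0.891, against at least 0.944 for every other sparrow with its own species. It gave the highest House Sparrow value for 127 of the 502 genes lower in sparrows (25.3%) and for 2060 of the 9530 genes not separated (21.6%). It gave the lowest for 173 of the 605 genes higher in sparrows (28.6%) and for 2023 of the genes not separated (21.2%). Without the 6 libraries 602 genes were separated higher and 530 lower. In such bulk tissue, fewer cells of a type and less RNA per cell cannot be told apart.

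Most separations were narrow. Of the separated genes 54.7% were higher in sparrows, and 42.4% with scaling by library size alone. The gap between the nearer sparrow mean and the nearest other species had a median of 0.16 on the log2 scale for genes higher in sparrows and 0.17 for genes lower in sparrows, and it reached 1 for 12 higher genes (0.113%) and 29 lower genes (0.273%). In every sparrow against every other bird, 9 genes were higher (0.0846%) and 15 lower (0.141%). Read by the same rule against the 8 remaining species, swallows gave 1400 separated genes (13.2%), wrens 1248 (11.7%), warblers 1142 (10.7%) and thrushes 943 (8.87%). The sparrow total thus lay within the range of the other families. The widest gap of a gene below all others was 7.32 in sparrows, against at most 5.01 in any other family. Above all others it was 1.79 in sparrows, against 5.22 in wrens, 2.13 in swallows, 1.53 in warblers and 1.33 in thrushes.

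**Figure D1:**
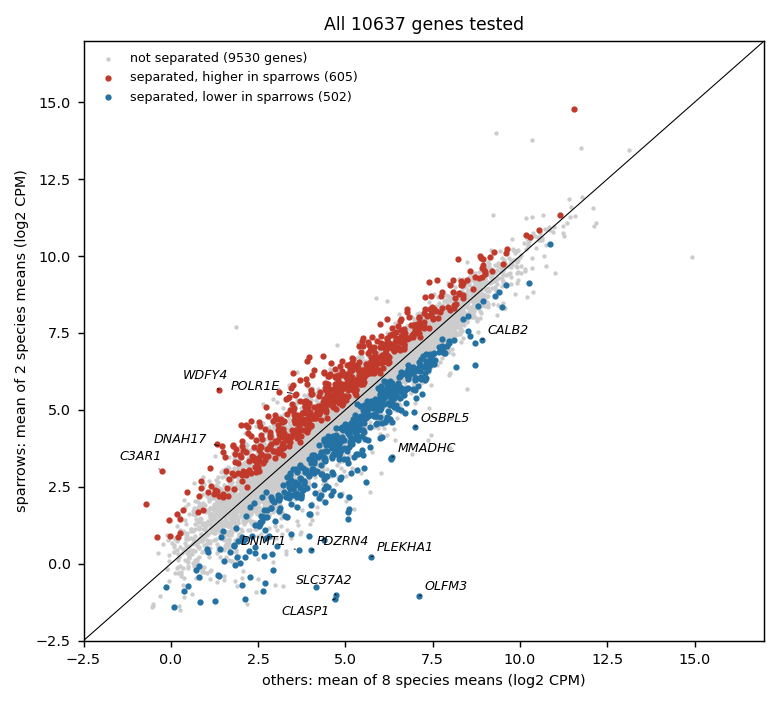
Mean level in sparrows (vertical axis, log2 CPM, mean of 2 species means) against the mean in the other birds (horizontal axis, log2 CPM, mean of 8 species means) for all 10637 genes, 1 point a gene, with equal levels on the line. Red points are the 605 genes separated higher and blue points the 502 separated lower, and OLFM3, CLASP1, SLC37A2 and PLEKHA1 lie farthest below the line.

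**Figure D2:**
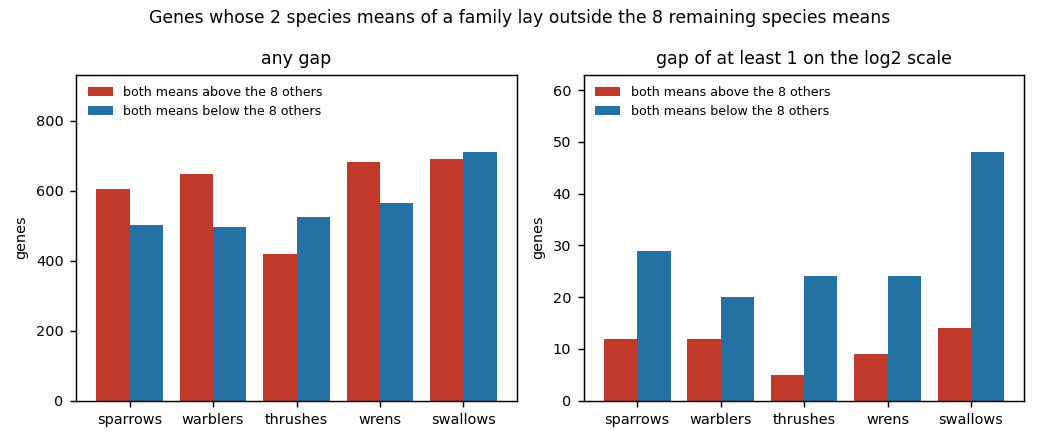
Number of genes (vertical axis) whose 2 species means in a family lay above (red) or below (blue) the 8 remaining species means, for any gap (left) and for a gap of at least 1 on the log2 scale (right). Sparrows gave 605 and 502 genes at any gap and 12 and 29 at the wider gap, between thrushes and swallows in total.

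A test over species means, limma on 2 sparrow and 8 other species with Benjamini-Hochberg adjustment over all genes, called 20 genes (0.188%), 3 higher (0.0282%) and 17 lower (0.16%). All of them were separated, but the test and the rule use the same species means and are not independent. Leaving out 1 species at a time gave 8 to 87 calls, with the highest count without Eurasian Tree Sparrow and the lowest without Carolina Wren, Eastern Bluebird or House Wren. At an unadjusted p under 0.05 it passed 468 genes higher (4.4%) and 620 lower (5.83%). The 18 called genes with a symbol were 2 higher and 16 lower. Differences below are log2 of sparrows minus others with the standard error from this test. Related species entered it as separate units, and limma on 5 family means called 6 genes, 0 of them higher, with 4 among the 20.

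OLFM3, a secreted olfactomedin glycoprotein of brain and retina, showed the widest gap. It had 0, 0.197 and 0.593 CPM in Eurasian Tree Sparrows and 0, 0.163 and 0.353 CPM in House Sparrows, against 69.3, 136 and 256 CPM in the other birds (lowest, median and highest bird). Every sparrow was near 0, with 21 reads in all 24 birds together, and every other bird was high. The difference was -8.17 ± 0.36 (adjusted p = 6.0e-07). This fitted value depends on the prior count of 2 because the sparrow level is so low. How well sparrow reads matched the gene models was not tested for OLFM3, or for SLC37A2, CLASP1 and PLEKHA1 below.

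SLC37A2, a sugar phosphate transporter of the endoplasmic reticulum, had 0, 0.298 and 0.651 CPM in Eurasian Tree Sparrows and 0, 0 and 1.23 CPM in House Sparrows, against 6.72, 24.9 and 90.1 CPM in the other birds. Its sparrow reads numbered 24, with 13 of 24 sparrows at 0, and House Sparrow female 3 was the only House Sparrow above 0. The groups did not overlap, and the difference was -5.76 ± 0.46 (adjusted p = 0.00027). CLASP1, which stabilises microtubule plus ends, had 0, 0.181 and 0.506 CPM in Eurasian Tree Sparrows and 0, 0.0839 and 0.202 CPM in House Sparrows, against 6.16, 27.1 and 92.2 CPM in the other birds. Again no sparrow reached the lowest other bird, and the difference was -5.85 ± 0.57 (adjusted p = 0.0013).

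PLEKHA1, an adaptor that binds a phosphoinositide of the plasma membrane, differed between the 2 sparrows as well as from the rest. It had 0, 0 and 0 CPM in Eurasian Tree Sparrows and 2.2, 3.41 and 6.53 CPM in House Sparrows, against 20.6, 53.9 and 147 CPM in the other birds. None of the 12 Eurasian Tree Sparrows had a read among 69818055 counts, which allows at most 0.043 CPM over the species (3 counts, counting error only). House Sparrows held a low level in every bird, still below every other bird, and the combined difference was -5.51 ± 0.73 (adjusted p = 0.015). With Eurasian Tree Sparrows at 0 reads this fitted value depends on the prior count, and over 16 alternative settings it ran from -7.30 to -3.76, with an adjusted p of up to 0.24.

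PDZRN4, a PDZ and RING domain protein, had 0.593, 1.14 and 2.04 CPM in Eurasian Tree Sparrows and 0.389, 0.889 and 1.59 CPM in House Sparrows, against 4.28, 17.9 and 34.8 CPM in the other birds. Every sparrow lay below every other bird, with a difference of -3.59 ± 0.44 (adjusted p = 0.0095). MMADHC, which routes vitamin B12 to its enzymes in cytosol and mitochondria, had 4.89, 8.64 and 12.9 CPM in Eurasian Tree Sparrows and 6.67, 14.5 and 27.5 CPM in House Sparrows, against 36.99, 90.1 and 186 CPM in the other birds. OSBPL5, a lipid transfer protein at contacts of the endoplasmic reticulum with the plasma membrane, had 22.9, 28.5 and 42.1 CPM in Eurasian Tree Sparrows and 10.6, 15.8 and 24.5 CPM in House Sparrows, against 55.7, 128 and 310.1 CPM in the other birds. In neither gene did the groups overlap, with differences of -2.87 ± 0.47 for MMADHC (adjusted p = 0.042) and -2.55 ± 0.34 for OSBPL5 (adjusted p = 0.015). Unlike OLFM3 and CLASP1, both genes kept a clear level in sparrows.

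DNMT1, the maintenance DNA methyltransferase, had 0, 0.574 and 1.09 CPM in Eurasian Tree Sparrows and 0.779, 2.06 and 5.9 CPM in House Sparrows, against 1.01, 12.6 and 47.6 CPM in the other birds. Most sparrows lay below most other birds with a small overlap, and the difference was -3.23 ± 0.52 (adjusted p = 0.042). MCM5, a subunit of the replicative helicase, averaged 1.98 ± 1.67 CPM in the Eurasian Tree and 0.737 ± 1.34 CPM in the House Sparrow, against 5.17 to 12.4 CPM over the other species (mean ± SD over birds, and range of species means), a difference of -2.59 ± 0.40 (adjusted p = 0.037). SHLD1, a shieldin subunit that protects broken DNA ends, averaged 0.564 ± 0.344 CPM in the Eurasian Tree and 0.36 ± 0.285 CPM in the House Sparrow, against 2.74 to 8.65 CPM over the other species, a difference of -2.70 ± 0.44 (adjusted p = 0.042). NDC1, a nucleoporin of the pore membrane, had 5.54, 7.08 and 10.6 CPM in Eurasian Tree Sparrows and 4.67, 7.06 and 11.7 CPM in House Sparrows, against 12.8, 24.8 and 49.9 CPM in the other birds. For NDC1 no sparrow overlapped another bird, with a difference of -1.73 ± 0.29 (adjusted p = 0.042).

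The remaining called genes with a symbol serve other parts of the cell. EXOC3L1, related to an exocyst subunit, differed by -3.06 ± 0.47 (adjusted p = 0.037). RBM41, an RNA-binding protein, differed by -2.43 ± 0.37 (adjusted p = 0.037). MRPL24, a protein of the large mitochondrial ribosomal subunit, averaged 7.84 ± 3.77 CPM in the Eurasian Tree and 5.14 ± 7.78 CPM in the House Sparrow, against 18.8 to 37.01 CPM over the other species. CEP89, a protein of the distal appendages of the centriole, averaged 14.7 ± 3.45 CPM in the Eurasian Tree and 16.1 ± 18.5 CPM in the House Sparrow, against 37.2 to 66.9 CPM over the other species. Their differences were -2.28 ± 0.36 for MRPL24 (adjusted p = 0.041) and -1.92 ± 0.26 for CEP89 (adjusted p = 0.015). TSTD2, which has a rhodanese domain, differed by -2.05 ± 0.34 (adjusted p = 0.042), and it was added after the values were seen.

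House Sparrow female 3 was the highest House Sparrow for 6 of the called genes, CEP89, MRPL24, MCM5, SLC37A2, DNMT1 and MMADHC. It had 74.5 CPM of CEP89, whereas 8.65 to 13.5 CPM was the range of the 11 remaining birds of its species, and 29.5 CPM of MRPL24, whereas their range was 0.667 to 5.45 CPM. For MCM5 it had 4.92 CPM and they had 0 to 0.839 CPM. For DNMT1 it had 5.9 CPM and they had at most 2.85 CPM, and for MMADHC it had 27.5 CPM and they had at most 19.5 CPM. Without the 6 libraries the differences of these genes were -2.07 for CEP89 (adjusted p = 0.0076), -2.42 for MRPL24 (adjusted p = 0.035), -2.74 for MCM5 (adjusted p = 0.030), -5.84 for SLC37A2 (adjusted p = 0.000305), -3.30 for DNMT1 (adjusted p = 0.030) and -2.90 for MMADHC (adjusted p = 0.038), so each stayed called.

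**Figure D3:**
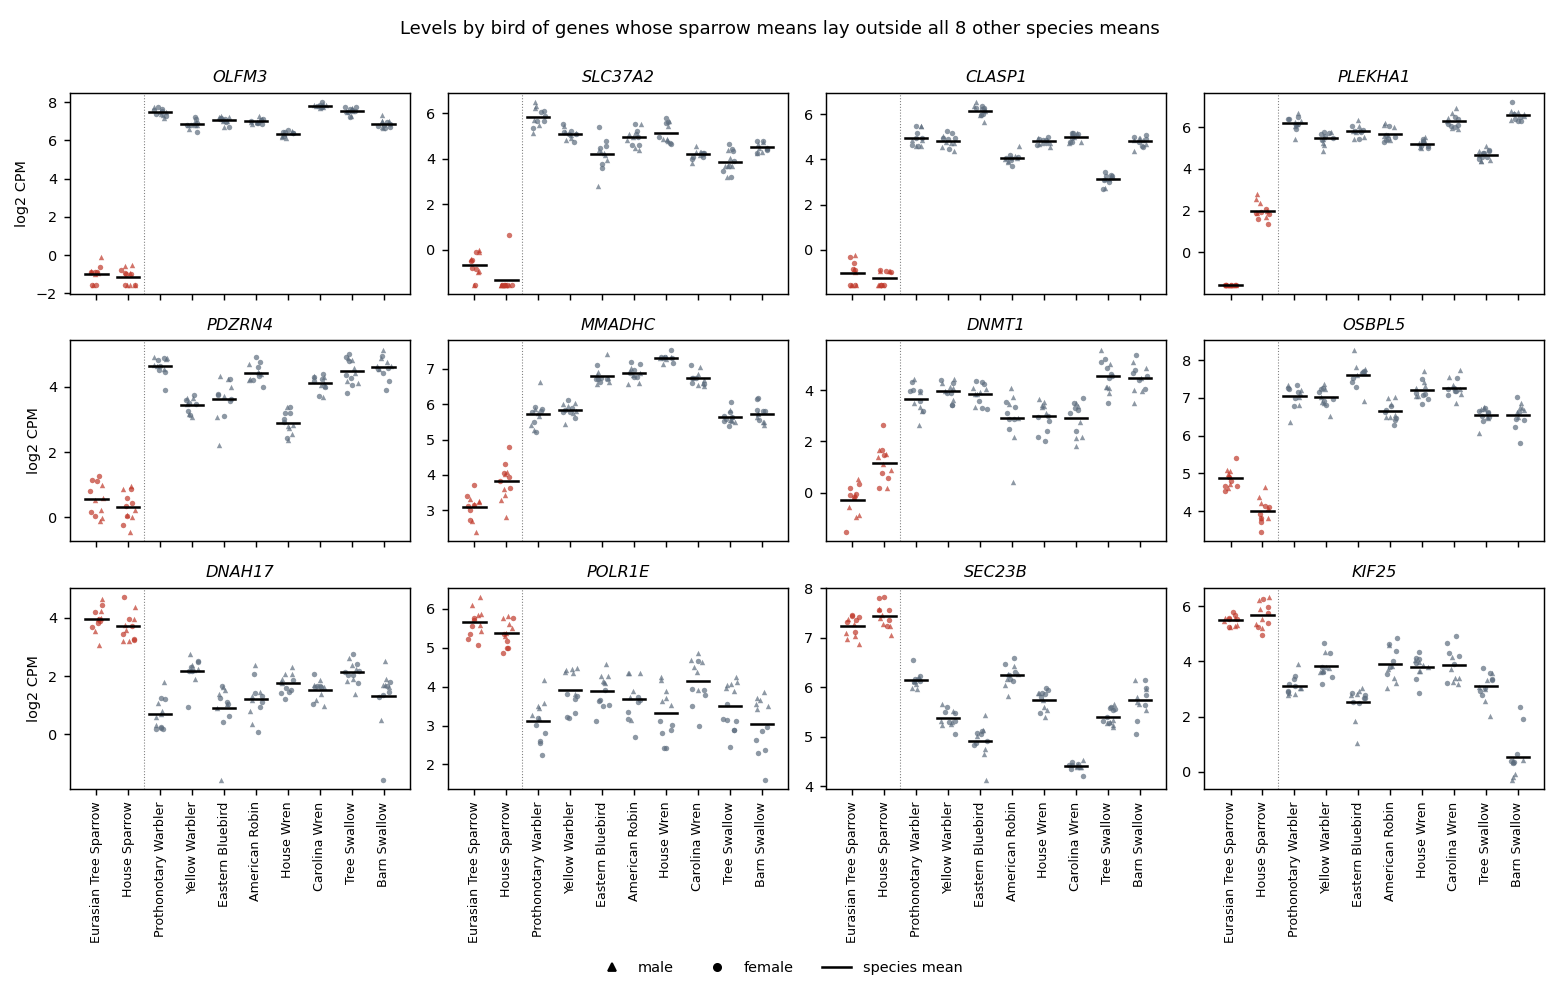
Level of 12 genes in each bird (vertical axes, log2 CPM), with species along the horizontal axis, sparrows in red at the left, males as triangles, females as circles and species means as bars. For OLFM3, SLC37A2, CLASP1, PLEKHA1, PDZRN4, MMADHC and OSBPL5 every sparrow lies below every other bird, for DNAH17, SEC23B and KIF25 every sparrow lies above, and DNMT1 and POLR1E overlap.

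Among genes higher in sparrows, DNAH17 and POLR1E passed the test. DNAH17, a heavy chain of axonemal dynein, had 7.92, 15.1 and 24.5 CPM in Eurasian Tree Sparrows and 8.76, 12.3 and 25.7 CPM in House Sparrows, against 0, 2.74 and 6.48 CPM in the other birds. Every sparrow exceeded every other bird, and the difference was 2.35 ± 0.39 (adjusted p = 0.042). POLR1E, a subunit of RNA polymerase I, which transcribes ribosomal RNA, had 33.4, 49.7 and 78.6 CPM in Eurasian Tree Sparrows and 28.9, 40.99 and 56.1 CPM in House Sparrows, against 2.71, 12.03 and 28.9 CPM in the other birds. Its highest other bird just reached the lowest sparrow, and the difference was 1.94 ± 0.32 (adjusted p = 0.042).

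Other genes with wide gaps above all species were not called, and they were chosen after their values were seen. WDFY4, which serves antigen cross-presentation in dendritic cells, had 27.9, 56.7 and 87.3 CPM in Eurasian Tree Sparrows and 9.34, 52.02 and 188 CPM in House Sparrows, against 0, 2.14 and 27.3 CPM in the other birds. The sparrow level was high on the whole, and the difference of 4.27 ± 0.89 had an adjusted p of 0.13. Barn Swallows also expressed WDFY4, with a mean of 18.2 CPM, while Tree Swallows had a mean of 4.40 CPM. KIF25, a kinesin, had 37.7, 45.7 and 54.8 CPM in Eurasian Tree Sparrows and 30.2, 49.7 and 79.8 CPM in House Sparrows, against 0.479, 9.63 and 29.9 CPM in the other birds. SEC23B, a coat protein of vesicles leaving the endoplasmic reticulum, had 117, 157 and 176 CPM in Eurasian Tree Sparrows and 132, 171 and 226 CPM in House Sparrows, against 17.2, 46.3 and 95.3 CPM in the other birds. For KIF25 and SEC23B every sparrow lay above every other bird, with a difference of 2.49 ± 0.73 for KIF25 (adjusted p = 0.26) and 1.84 ± 0.43 for SEC23B (adjusted p = 0.15). FARP1, a guanine nucleotide exchange factor of dendrites, averaged 154 ± 15.8 CPM in the Eurasian Tree and 149 ± 18.05 CPM in the House Sparrow, against 24.9 to 83.4 CPM over the other species, again with no overlap of birds (adjusted p = 0.24). POLR3C, a subunit of RNA polymerase III, averaged 109 ± 49.9 CPM in the Eurasian Tree and 127 ± 60.7 CPM in the House Sparrow, against 7.84 to 49.7 CPM over the other species (adjusted p = 0.13). HUS1, a subunit of the DNA damage checkpoint clamp, averaged 36.3 ± 4.79 CPM in the Eurasian Tree and 51.6 ± 12.8 CPM in the House Sparrow, against 5.78 to 20.01 CPM over the other species (adjusted p = 0.13). House Sparrow female 3 was the lowest House Sparrow for WDFY4, KIF25, POLR3C and HUS1, but not for SEC23B or FARP1. It had 15.5 CPM of HUS1, where the 11 remaining House Sparrows had 44.3 to 65.1 CPM.

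Below all species but not called, again chosen after their values were seen, were SLC2A11, a sugar transporter (adjusted p = 0.056), and HPCA, a neuronal calcium sensor. SLC2A11 had 1.03, 1.76 and 3.13 CPM in Eurasian Tree Sparrows and 0.246, 4.62 and 6.74 CPM in House Sparrows, against 10.7, 30.3 and 124 CPM in the other birds. No sparrow reached the other birds in SLC2A11. HPCA averaged 0.187 ± 0.251 CPM in the Eurasian Tree and 3.98 ± 13.5 CPM in the House Sparrow, against 1.43 to 17.1 CPM over the other species (adjusted p = 0.15), and it was separated on the mean of log2 CPM but not on the mean CPM. Its House Sparrow mean rested on House Sparrow female 3, which had 46.9 CPM where the other 11 had 0 to 0.459 CPM.

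The gene lists were read next, with 1608 list genes tested. limma called 0 of them higher and 3 lower, MRPL24, MCM5 and DNMT1, with 64 higher and 91 lower at an unadjusted p under 0.05. Over all 10637 genes it called 3 higher (0.0282%) and 17 lower (0.16%). At an unadjusted p under 0.05 it passed 4.4% higher and 5.83% lower, the shares to set beside such counts below. On counts summed per species edgeR called 0 list genes, against 4 of all 10637 genes. DESeq2 called 8 list genes higher and 28 lower, against 58 and 167 of all genes. The counts of separated members below are descriptions, to be set beside 10.4% over all genes and a median difference of 0.02 over all genes.

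Cytosolic ribosomal proteins held the highest share of separated genes of the 39 lists. Of 67 cytosolic ribosomal proteins tested, 14 were separated higher and 1 lower (22.4%), with a median difference of 0.37, and 10 higher and 2 lower had an unadjusted p under 0.05. RPS13 had 425, 575 and 749 CPM in Eurasian Tree Sparrows and 476, 590.3 and 1022 CPM in House Sparrows, against 141, 312 and 610.3 CPM in the other birds. RPL6 had 609, 913 and 1025 CPM in Eurasian Tree Sparrows and 632, 876 and 1325 CPM in House Sparrows, against 326, 471 and 968 CPM in the other birds. In both genes most sparrows were above most other birds but the groups overlapped, with differences of 0.88 ± 0.30 for RPS13 (adjusted p = 0.35) and 0.80 ± 0.25 for RPL6 (adjusted p = 0.3). Across the species, the median level of the list relative to the 10-species mean was 0.27 in Eurasian Tree Sparrows and 0.37 in House Sparrows, against 0.27 in Prothonotary Warblers, 0.23 in Yellow Warblers and 0.06 or less in the other 6 species, so warblers came close. The count of ribosomal genes separated higher was 22 in females alone and 5 in males alone, and 9 with scaling by library size alone. RPS9 was the member below all others.

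Of 32 proteasome subunits, 5 were separated higher and 0 lower (15.6%), with a median difference of 0.27 and an unadjusted p under 0.05 for 2 higher and 1 lower. PSMB4, a beta subunit of the core, averaged 63.95 ± 29.8 CPM in the Eurasian Tree and 64.7 ± 35.7 CPM in the House Sparrow, against 6.19 to 46.99 CPM over the other species (difference 1.95 ± 0.70, adjusted p = 0.36). Scaling by library size alone left 3 separated higher. Of 52 chaperones and co-chaperones, 6 were higher and 4 lower (19.2%). CCT4 and CCT3, subunits of the cytosolic chaperonin, were among the higher ones. CCT4 had 374, 419.8 and 503 CPM in Eurasian Tree Sparrows and 597, 736 and 865 CPM in House Sparrows, against 81.99, 169.9 and 391 CPM in the other birds. Only the top of the other birds overlapped Eurasian Tree Sparrows, and House Sparrows were higher still, a difference of 1.75 ± 0.45 (adjusted p = 0.2). HSP90AB1, a cytosolic Hsp90, averaged 534 ± 59.5 CPM in the Eurasian Tree and 537 ± 105 CPM in the House Sparrow, against 138 to 401 CPM over the other species (adjusted p = 0.32). HSF1, the transcription factor that drives heat shock genes, lay on the other side at 8.27 ± 2.67 CPM in the Eurasian Tree and 6.37 ± 3.32 CPM in the House Sparrow, against 15.5 to 37.99 CPM over the other species (adjusted p = 0.13), and HSPA5, the chaperone of the endoplasmic reticulum, was also separated lower.

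Mitochondrial ribosomal proteins split, with 6 higher and 5 lower of 63 (17.5%) and a median of -0.02. MRPL28 averaged 12.6 ± 3.69 CPM in the Eurasian Tree and 15.8 ± 4.65 CPM in the House Sparrow, against 24.6 to 42.8 CPM over the other species (adjusted p = 0.13), and MRPL22 averaged 46.4 ± 7.13 CPM in the Eurasian Tree and 45.2 ± 7.01 CPM in the House Sparrow, against 24.01 to 35.4 CPM over the other species (adjusted p = 0.41). Of 42 nuclear genes of oxidative phosphorylation, NDUFS4 and CYCS were higher and ATP5F1A lower (7.14%), the median difference was 0.19, and the 3 genes with an unadjusted p under 0.05 were all lower. The difference of ATP5F1A ran from -1.95 to -0.39 over 16 alternative settings. CYTB, which encodes cytochrome b, was the only separated gene of 12 encoded in the mitochondrion (8.33%). It had 22207, 28536 and 47932 CPM in Eurasian Tree Sparrows and 1916, 32412 and 48675 CPM in House Sparrows, against 0.299, 6609 and 32890.1 CPM in the other birds, and the difference was 3.23 ± 2.62 (adjusted p = 0.72), with Carolina Wrens near 0 at a mean of 4.75 CPM. The lowest House Sparrow of CYTB was female 3, and the 11 remaining birds of its species had 24508 to 48675 CPM. The birds of the groups overlapped.

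Splicing and chromatin genes were separated about as often as all genes. Of 90 splicing genes, 8 were higher and 2 lower (11.1%), with 7 higher and 3 lower at an unadjusted p under 0.05. HNRNPLL, a regulator of alternative splicing, had 232, 279 and 322 CPM in Eurasian Tree Sparrows and 200.4, 224 and 268 CPM in House Sparrows, against 55.4, 93.4 and 189.7 CPM in the other birds. No sparrow overlapped another bird in HNRNPLL, and the difference was 1.36 ± 0.32 (adjusted p = 0.15). SNRPB, a core protein of spliceosomal particles, averaged 136 ± 31.99 CPM in the Eurasian Tree and 129.97 ± 39.4 CPM in the House Sparrow, against 35.7 to 87.9 CPM over the other species (adjusted p = 0.4). Of 70 genes of histone and DNA modification, 6 were higher and DNMT1 was lower (10%), although the median difference of the list was -0.09. They included the demethylases KDM6A and KDM1B, the methyltransferases KMT2C and EZH2, and the deacetylases SIRT2 and SIRT3. KDM6A averaged 102 ± 11.3 CPM in the Eurasian Tree and 115 ± 13.2 CPM in the House Sparrow, against 59.99 to 86.4 CPM over the other species (adjusted p = 0.34). Of 68 DNA repair and replication genes, MCM9 was higher, and MCM5, MCM6 and POLB were lower (5.88%). MCM6, another helicase subunit, averaged 8.84 ± 3.48 CPM in the Eurasian Tree and 3.84 ± 4.23 CPM in the House Sparrow, against 13.2 to 41.2 CPM over the other species (adjusted p = 0.16), where House Sparrow female 3 had 17 CPM and the other 11 had 1.06 to 4.14 CPM.

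**Figure D4:**
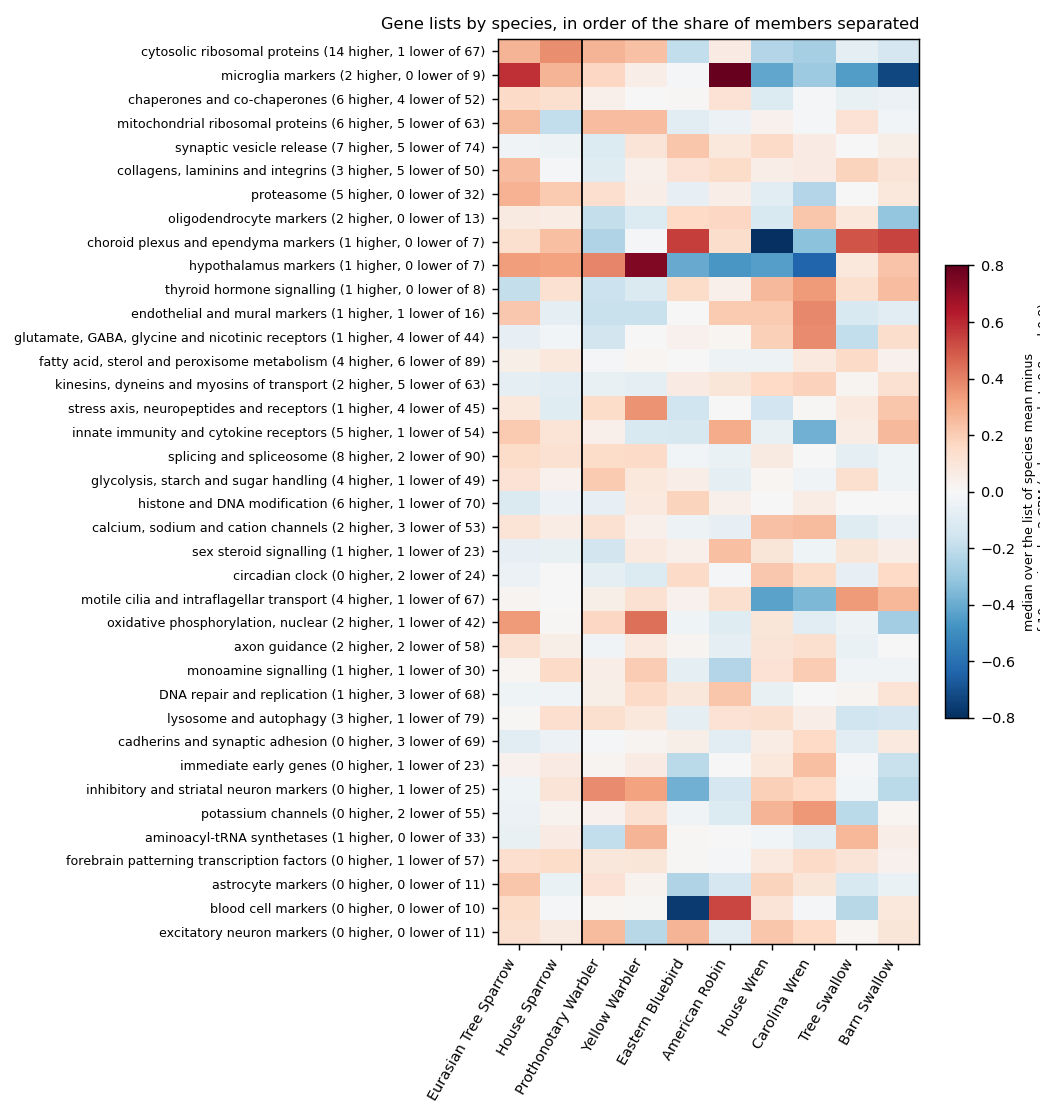
Median over the members of each gene list (rows, with the members separated of those tested) of the species mean minus the mean of 10 species, in log2 CPM, by species (columns, sparrows at the left); red is above and blue below the mean, colours end at -0.8 and 0.8, and mitochondrially encoded genes are left out. Rows run from the highest share separated, cytosolic ribosomal proteins at 22.4%, down to lists with 0 separated members.

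No gene of the ion channel and transmitter receptor lists was called. Over all genes only 0.188% were called, so 0 calls in lists this short says little about them. Separated genes were few among potassium channels, while transmitter receptors lay near the 10.4% over all genes. Of 44 glutamate, GABA, glycine and nicotinic receptor genes, 1 was higher, GRM3, and 4 were lower, among them GRIN2B, GABRB2 and GRM7 (11.4%), and 0 higher and 2 lower had an unadjusted p under 0.05. GABRB2, a beta subunit of the GABA-A receptor, had 18.5, 28.9 and 60.5 CPM in Eurasian Tree Sparrows and 21.4, 43.9 and 91.3 CPM in House Sparrows, against 20.3, 118 and 212 CPM in the other birds. GRIN2B, a subunit of the NMDA receptor, had 61.2, 95.03 and 228 CPM in Eurasian Tree Sparrows and 53.4, 122 and 191 CPM in House Sparrows, against 49.99, 193 and 406 CPM in the other birds. Sparrows of both species were on the low side with overlap, by -1.49 ± 0.40 for GABRB2 (adjusted p = 0.22) and -0.72 ± 0.28 for GRIN2B (adjusted p = 0.4). Prothonotary Warblers were the nearest species for GABRB2, with a mean of 50.6 CPM. Of 55 potassium channel genes, 0 were higher and KCNH8 and KCNK9 were lower (3.64%), and of 69 cadherins and synaptic adhesion genes 0 were higher and SLITRK5, NLGN4X and ASTN2 were lower (4.35%).

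Synaptic vesicle genes lay on both sides, with 7 higher and 5 lower of 74 (16.2%), and 4 higher and 7 lower at an unadjusted p under 0.05. SV2C, a synaptic vesicle glycoprotein, averaged 80.4 ± 47.2 CPM in the Eurasian Tree and 104 ± 63.3 CPM in the House Sparrow, against 133 to 251 CPM over the other species (adjusted p = 0.2), while its relative SV2A was separated higher. BIN1, a membrane-bending adaptor of endocytosis, averaged 82.8 ± 28.8 CPM in the Eurasian Tree and 79.1 ± 27.2 CPM in the House Sparrow, against 27.7 to 60.9 CPM over the other species (adjusted p = 0.4), while its partner AMPH was separated lower. SYT13, an atypical synaptotagmin, averaged 51.5 ± 22.2 CPM in the Eurasian Tree and 49.01 ± 17.97 CPM in the House Sparrow, against 61.3 to 137 CPM over the other species (adjusted p = 0.44).

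Of 30 genes of monoamine signalling, TH was lower and SLC18A2 higher (6.67%). TH encodes tyrosine hydroxylase, the rate-limiting enzyme of catecholamine synthesis, and it had 2.07, 4.15 and 11.8 CPM in Eurasian Tree Sparrows and 1.6, 4.08 and 17.4 CPM in House Sparrows, against 2.98, 9.75 and 32.9 CPM in the other birds. SLC18A2, which loads monoamines into vesicles, had 13.6, 18.9 and 31.9 CPM in Eurasian Tree Sparrows and 10.8, 25.1 and 50.4 CPM in House Sparrows, against 2.33, 16.2 and 79.9 CPM in the other birds. Both overlapped widely between groups, with a difference of -1.11 ± 0.25 for TH (adjusted p = 0.14) and 0.48 ± 0.29 for SLC18A2 (adjusted p = 0.61). Some sparrows reached the level of other birds in TH, but both species means lay below all others, of which Carolina Wrens had the lowest at 9.41 CPM.

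Of 23 sex steroid genes, 1 was separated higher and 1 lower (8.7%), and 0 higher and 2 lower had an unadjusted p under 0.05. The higher one was HSD17B10, a mitochondrial dehydrogenase that can act on steroids, with a difference of 0.46 ± 0.27 (adjusted p = 0.6).

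Of 45 genes of the stress axis, neuropeptides and their receptors, ADCYAP1 was higher and VIPR1, FKBP5, TACR3 and CRHR2 were lower (11.1%), and 1 higher and 5 lower had an unadjusted p under 0.05. ADCYAP1 encodes the neuropeptide PACAP and had 59.9, 81.4 and 107 CPM in Eurasian Tree Sparrows and 71.1, 96.5 and 175 CPM in House Sparrows, against 13.1, 52.7 and 101 CPM in the other birds. VIPR1, a receptor for vasoactive intestinal peptide and PACAP, had 2.39, 4.18 and 6.25 CPM in Eurasian Tree Sparrows and 2.07, 4.05 and 7.17 CPM in House Sparrows, against 1.89, 9.6 and 23.7 CPM in the other birds. Neither gene was called and the birds overlapped in both, with a difference of 0.84 ± 0.29 for ADCYAP1 (adjusted p = 0.35) and -1.13 ± 0.38 for VIPR1 (adjusted p = 0.34). FKBP5, a co-chaperone of the glucocorticoid receptor that glucocorticoids induce, had 2.55, 15.2 and 45.3 CPM in Eurasian Tree Sparrows and 4.19, 10.2 and 36.9 CPM in House Sparrows, against 10.6, 33.3 and 169 CPM in the other birds. Sparrows varied widely among themselves in FKBP5 and overlapped the others, by -1.40 ± 0.46 (adjusted p = 0.32). TACR3, the neurokinin B receptor, averaged 1.6 ± 0.456 CPM in the Eurasian Tree and 3.3 ± 1.15 CPM in the House Sparrow, against 3.47 to 8.7 CPM over the other species (adjusted p = 0.29).

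Among 8 thyroid hormone genes, DIO2 was higher (12.5%). It encodes the deiodinase that makes active thyroid hormone, and it had 4.34, 11.8 and 22.8 CPM in Eurasian Tree Sparrows and 4.79, 11.02 and 49.04 CPM in House Sparrows, against 0, 5.84 and 24.4 CPM in the other birds, a difference of 0.97 ± 0.38 with overlap (adjusted p = 0.41). The circadian list had 0 higher and 2 lower of 24 (8.33%), BHLHE41, a transcriptional repressor of the clock, and CSNK1D, a kinase of PER proteins. The 23 immediate early genes gave SIK1 alone, on the lower side (4.35%).

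**Figure D5:**
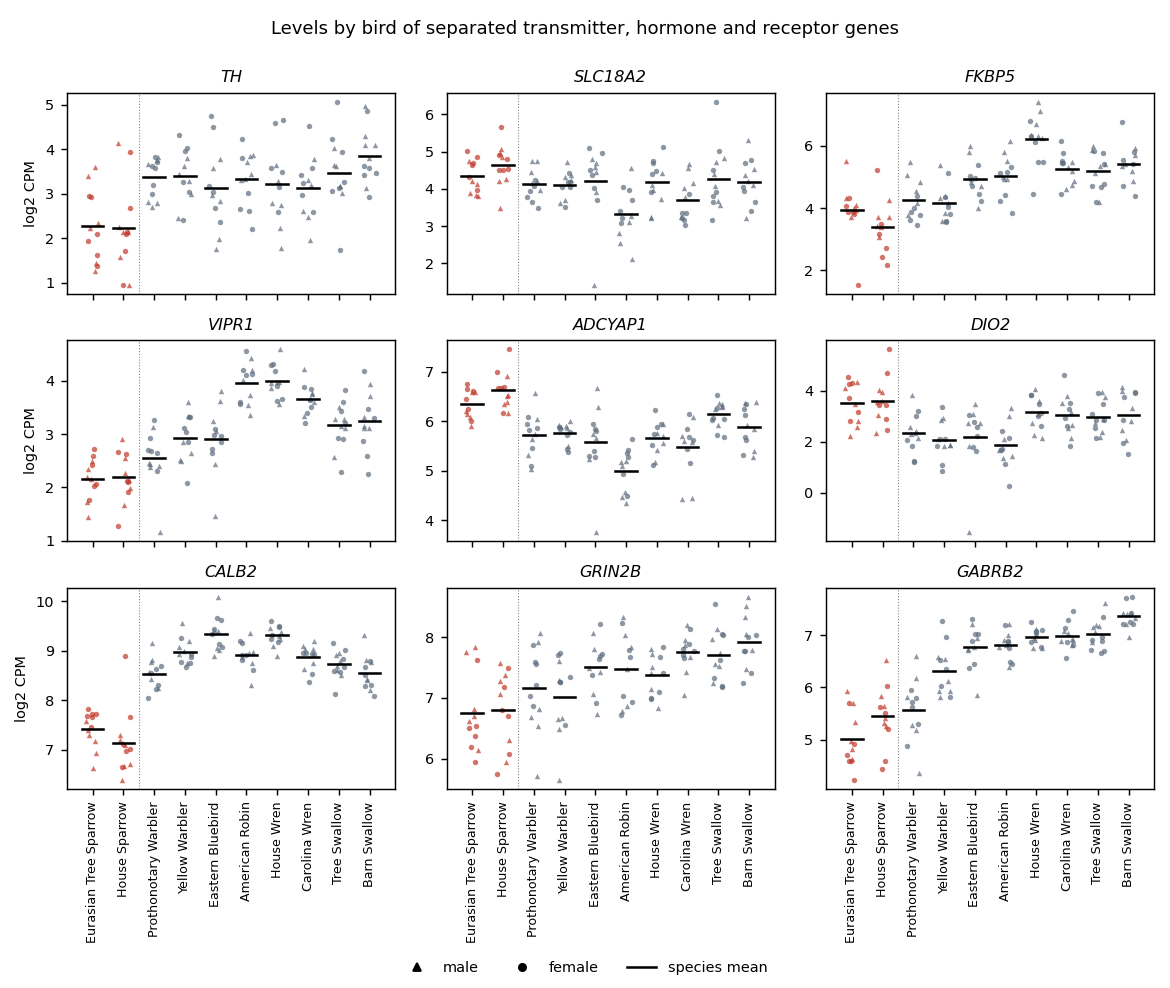
Level of 9 genes of transmission and hormone action in each bird (vertical axes, log2 CPM), by species along the horizontal axis with sparrows in red at the left, males as triangles, females as circles and species means as bars. Sparrow means lie below the others for TH, FKBP5, VIPR1, CALB2, GRIN2B and GABRB2 and above them for SLC18A2, ADCYAP1 and DIO2, with overlapping birds in each.

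Of 54 innate immune genes, 5 were separated higher and 1 lower (11.1%, against 10.4% over all genes), with a median difference of 0.27 and 3 higher and 3 lower at an unadjusted p under 0.05. The list's median level relative to the 10-species mean was 0.21 in Eurasian Tree Sparrows and 0.11 in House Sparrows, against 0.30 in American Robins and 0.26 in Barn Swallows, which exceeded both sparrows. C3AR1, the receptor for complement C3a, had 2.87, 6.01 and 13.7 CPM in Eurasian Tree Sparrows and 3.93, 9.44 and 23.4 CPM in House Sparrows, against 0, 0.337 and 10.5 CPM in the other birds. Most other birds were near 0 and most sparrows were above them, a difference of 3.25 ± 0.68 (adjusted p = 0.13). TRAF1, a signalling adaptor of tumour necrosis factor receptors, averaged 73.4 ± 12.6 CPM in the Eurasian Tree and 72.9 ± 24.1 CPM in the House Sparrow, against 20.1 to 45.2 CPM over the other species (adjusted p = 0.19). IRF7, an interferon regulatory factor, averaged 24.8 ± 7.51 CPM in the Eurasian Tree and 20.6 ± 9.57 CPM in the House Sparrow, against 1.51 to 17.04 CPM over the other species (adjusted p = 0.4). House Sparrow female 3 was the lowest House Sparrow for C3AR1, TRAF1 and IRF7. IFNGR1, a chain of the interferon gamma receptor, was the lower member at 12.4 ± 2.47 CPM in the Eurasian Tree and 13.5 ± 3.69 CPM in the House Sparrow, against 23.5 to 112 CPM over the other species (adjusted p = 0.22).

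Microglia markers lay on the same side, and C1QB stands in both lists. Of 9 tested, LY86 and C1QB were separated higher and 0 lower (22.2%), and the median difference was 0.58. The list's median level relative to the 10-species mean was 0.59 in Eurasian Tree Sparrows and 0.27 in House Sparrows, against -0.73 in Barn Swallows to 0.90 in American Robins. LY86 averaged 13.3 ± 3.18 CPM in the Eurasian Tree and 11.1 ± 6.58 CPM in the House Sparrow, against 1.6 to 9.82 CPM over the other species (adjusted p = 0.37), and C1QB averaged 22.7 ± 17.01 CPM in the Eurasian Tree and 20.4 ± 16.2 CPM in the House Sparrow, against 1.45 to 16.2 CPM over the other species (adjusted p = 0.56). House Sparrow female 3 had 30.5 CPM of LY86, and the 11 remaining House Sparrows had 5.17 to 14.2 CPM with a mean of 9.32 CPM. That mean lies below the highest other species on the mean CPM, whereas the rule uses means of log2 CPM. American Robins exceeded both sparrows on the list as a whole, and the part of microglia in the immune genes was not tested.

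The lists for other cell types were short, and their shares of separated genes lay on both sides of the 10.4% over all genes. The oligodendrocyte list gave CLDN11 and MYRF higher of 13 (15.4%), the endothelial and mural list TIE1 higher and ABCC9 lower of 16 (12.5%), and the astrocyte, blood and excitatory neuron lists 0 of 11, 0 of 10 and 0 of 11. Of 25 inhibitory and striatal markers, CALB2 was lower (4%). CALB2 encodes calretinin, a calcium buffer of interneurons, and had 99.1, 183 and 225 CPM in Eurasian Tree Sparrows and 84.3, 133 and 474 CPM in House Sparrows, against 263, 484 and 1086 CPM in the other birds. House Sparrow female 3, at 474 CPM, was the highest sparrow, the other 11 House Sparrows had 84.3 to 202 CPM, and without that bird no sparrow reached the lowest other bird. The difference was -1.62 ± 0.28 (adjusted p = 0.055), and without the 6 libraries it was -1.71 (adjusted p = 0.043), which passed the threshold. TBX3 was higher among 7 hypothalamus markers (14.3%) and MSX1 among 7 choroid plexus and ependyma markers (14.3%).

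Structural genes were mixed. Of 50 collagens, laminins and integrins, 3 were higher and 5 lower (16%). COL27A1, a fibrillar collagen, averaged 120.8 ± 24.4 CPM in the Eurasian Tree and 159 ± 33.1 CPM in the House Sparrow, against 27.6 to 70.8 CPM over the other species (adjusted p = 0.16). ITGB8, an integrin chain that activates transforming growth factor beta, averaged 67.2 ± 10.4 CPM in the Eurasian Tree and 31.1 ± 5.87 CPM in the House Sparrow, against 96.9 to 220.1 CPM over the other species (adjusted p = 0.13). Of 63 transport motors, 2 were higher and 5 lower (11.1%). MYO19, a motor of mitochondria, averaged 7.02 ± 1.44 CPM in the Eurasian Tree and 2.41 ± 0.675 CPM in the House Sparrow, against 9.24 to 22.4 CPM over the other species (adjusted p = 0.23), and HOOK3, a dynein adaptor, averaged 25.2 ± 9.89 CPM in the Eurasian Tree and 25.1 ± 12.1 CPM in the House Sparrow, against 30.7 to 98.1 CPM over the other species (adjusted p = 0.28). Of 67 cilia and intraflagellar transport genes, WDR35, BBS5, CFAP44 and IFT46 were higher and IFT88 lower (7.46%). WDR35, of the retrograde complex, averaged 87.6 ± 11.9 CPM in the Eurasian Tree and 89.2 ± 10.2 CPM in the House Sparrow, against 20.7 to 51.1 CPM over the other species (adjusted p = 0.2), and IFT88, of the anterograde complex, averaged 15.8 ± 2.52 CPM in the Eurasian Tree and 17.8 ± 5.24 CPM in the House Sparrow, against 29.2 to 101 CPM over the other species (adjusted p = 0.22). Among 58 axon guidance genes, EPHA2 and EPHB6 were higher and SEMA3A and PLXNA4, a ligand and a receptor of the semaphorin system, were lower (6.9%). EPHA2, an ephrin receptor, averaged 10.7 ± 3.07 CPM in the Eurasian Tree and 15.1 ± 5.33 CPM in the House Sparrow, against 1.32 to 6.38 CPM over the other species (adjusted p = 0.17).

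Metabolic genes gave 4 higher and 6 lower of 89 for fatty acids, sterols and peroxisomes (11.2%), and 4 higher and 1 lower of 49 for sugar handling (10.2%). ACAD9, an assembly factor of complex I related to acyl-CoA dehydrogenases, averaged 402 ± 266 CPM in the Eurasian Tree and 183 ± 43.6 CPM in the House Sparrow, against 37.96 to 138 CPM over the other species (adjusted p = 0.2). PGM1, which interconverts glucose phosphates, averaged 233 ± 53.9 CPM in the Eurasian Tree and 215 ± 48.7 CPM in the House Sparrow, against 80.5 to 161 CPM over the other species (adjusted p = 0.39). CARS2, the mitochondrial cysteinyl-tRNA synthetase, was the only one separated of 33 aminoacyl-tRNA synthetases (3.03%) and averaged 60.7 ± 7.38 CPM in the Eurasian Tree and 79.5 ± 14.6 CPM in the House Sparrow, against 13.4 to 53.6 CPM over the other species (adjusted p = 0.27). The lysosome and autophagy list gave 3 higher and 1 lower of 79 (5.06%), and the calcium, sodium and cation channels gave 2 higher and 3 lower of 53 (9.43%). In the channel list the relatives STIM1 and STIM2, and PKD1 and PKD2, lay on opposite sides, the first of each pair higher, but none was called. STIM2 was near 0 in some other species too, with means of 0.642 CPM in Tree Swallows and 0.867 CPM in House Wrens, against 20.2 CPM in Barn Swallows. House Sparrow female 3 had 56.5 CPM of PKD2, where the 11 remaining House Sparrows had 4.87 to 10.9 CPM.

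At the edge of the rule the species means nearly touched. Just inside on the higher side were WDFY1, MED12 and ARID5B, and just outside TOE1, CZIB and ABHD12B, with gaps of 0.00020 to 0.00045 inside and gaps of -0.00019 to -0.000685 outside on the log2 scale. FOXO4, LRRC42 and FUCA1 were just inside on the lower side, and PSEN2, CNOT4 and FSTL5 just outside, with gaps of 0.0010 to 0.0021 inside and -7.2e-05 to -0.0012 outside. FOXO4, a forkhead transcription factor, shows how small such a separation can be, at 36.1 ± 8.73 CPM in the Eurasian Tree and 37.3 ± 7.19 CPM in the House Sparrow, against 37.4 to 46.8 CPM over the other species. Without House Sparrow female 3 the House Sparrow mean of FOXO4 was 37.8 CPM, above the lowest other species on the mean CPM. The rule uses means of log2 CPM, on which FOXO4 was not read without that bird.

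Warblers were the family nearest to sparrows. They held the nearest species mean for 387 of the 1107 separated genes (35%), thrushes for 267 (24.1%), swallows for 235 (21.2%) and wrens for 218 (19.7%). Over all 10637 genes the Spearman correlation of species means was 0.921 between the 2 sparrows, and the mean over pairs was 0.893 of sparrows with warblers, 0.879 with wrens, 0.876 with thrushes and 0.870 with swallows. These correlations are across genes, which are not independent, and all species share the set of genes counted and the labelled tissue.

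The 2 sparrows also differed from each other. By edgeR's quasi-likelihood test on 24 birds with sex as a covariate, 5084 of 10374 genes differed between Eurasian Tree Sparrows and House Sparrows (49%), 2515 higher (24.2%) and 2569 lower (24.8%) in Eurasian Tree Sparrows. Among separated genes 302 of 1051 tested differed, which is a smaller share (28.7%), but the rule itself requires both species means to lie on the same side. OSBPL5 was higher in Eurasian Tree Sparrows by 0.86 ± 0.12 (log2 ± SE, adjusted p = 8.0e-07), MMADHC was lower, at -0.76 ± 0.17 (adjusted p = 0.00052), and CCT4 was lower, at -0.77 ± 0.06 (adjusted p = 1.1e-10). DNAH17 did not pass at 0.22 ± 0.19 (adjusted p = 0.35), nor did NDC1 at 0.01 ± 0.15 (adjusted p = 0.95). NBR1, an autophagy receptor, differed by -1.13 ± 0.12 (adjusted p = 7.2e-09).

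Sex was examined in sparrows with species as a covariate. In birds, males have a pair of Z chromosomes and females a Z and a W, and dosage compensation is incomplete. edgeR called 395 of 10374 genes between male and female sparrows (3.81%), 356 higher (3.43%) and 39 lower (0.376%) in males. Among separated genes 48 of 1051 were called, a share of 4.57%, of which 43 were higher in males. WDR41 was higher in male sparrows by 1.09 ± 0.10 (log2 ± SE, adjusted p = 4.9e-09), ACER2, an alkaline ceramidase, by 1.13 ± 0.13 (adjusted p = 4.6e-07), and VLDLR, a lipoprotein and reelin receptor, by 0.82 ± 0.09 (adjusted p = 3.5e-07). RPS6, a ribosomal protein, was higher in males by 0.75 ± 0.11 (adjusted p = 2.9e-05), and SV2C, the vesicle glycoprotein, by 0.96 ± 0.27 (adjusted p = 0.044). SCP2, a sterol carrier, was lower in males at -0.47 ± 0.07 (adjusted p = 1.4e-05).

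The rule was also applied to each sex. With species means of females alone 601 genes were higher and 585 lower, and with males alone 521 and 414. Genes separated higher in both sexes numbered 356, which is 59.2% of those in females and 68.3% of those in males. Genes separated lower in both numbered 290, which is 49.6% and 70%, and 0 genes were separated in opposite directions. A test of the sex difference in sparrows minus that in the other 8 species, limma on the male minus female difference of each species, called 0 of 10637 genes (0%), with 735 at an unadjusted p under 0.05 (6.91%), and 14 genes without Eurasian Tree Sparrow. ABCC2, an organic anion pump, had the smallest p of genes less male-biased in sparrows, with a male minus female difference of -0.73 in sparrows and -0.03 in the others (adjusted p = 0.70). NOS1, neuronal nitric oxide synthase, was among the 3 with the smallest p on the other side, with 0.63 in sparrows and -0.10 in the others (adjusted p = 0.70). ATP5F1A, a subunit of ATP synthase with a near-identical W-linked copy in birds, had a difference of -0.81 in sparrows and 0.77 in the others (adjusted p = 0.70). How reads of the W-linked copy were counted was not tested.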

How the data were processed

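Gene expression was measured by RNA sequencing of the ventromedial telencephalon of 24 sparrows and 97 other birds, 10 species in all, with RNA from a phenol chloroform extraction and stranded mRNA libraries, per the labels' protocols. The authors deposited 1 table of raw read counts per gene and bird for 10672 genes. Read handling involved Bowtie2 2.4.4, featureCounts (Subread 2.02z), fastp 0.20.1, SAMtools and Trimmomatic 0.36, per the submitters' processing notes. No source used here gives the reference to which reads were matched. The table has 911 entries without a symbol, which were tested and not named, and 35 genes were removed by edgeR's filterByExpr on species.

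Counts were scaled with TMM factors and turned into CPM and into log2 CPM with a prior count of 2, which were averaged over the birds of each species. limma 3.58.1 compared the 2 sparrow means with the 8 other means (8 residual degrees of freedom). edgeR 4.0.16's quasi-likelihood test compared the sparrow species and the sexes within sparrows. Tests were two-sided with Benjamini-Hochberg adjustment over all genes tested and a threshold of 0.05. The p-values of the edgeR tests measure the spread between birds, and those of limma the spread between species. DESeq2 1.42.0 served as an alternative, under R 4.3.3, and figures used matplotlib. Total counts per bird are given in the report, and they set the precision of low counts. For the sparrow comparison, species means of log2 CPM were simulated with normal noise of each gene's fitted spread, with species independent and without count noise. Over 10637 genes limma then recovered 2% of genes changed 1.5-fold, 6% at 2-fold, 56% at 4-fold and 98% at 16-fold.

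Groups came from the labels. The members and the 39 gene lists were chosen with earlier results of these data known. Genes named are, per direction, up to 15 called nuclear genes of at least 5 CPM with the largest gap, up to 4 separated members of each list, the separated mitochondrial genes, 3 genes on each side of the border, separated genes that differ by sex, and the 3 smallest p-values of the sex comparison. Genes added beyond this are marked in the text, and a few genes are not reported here. The alternatives were other scalings, filters, prior counts, sexes, left-out species or libraries, and other tests.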

Additional observations from a re-analysis of the deposited data

Results flagged for a closer look

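For the 17 called genes named in the report by their rule, 85 groups of 4 to 10 values were examined. A bird or species far from the rest was sought, and 7 stood out (8.24%). Chance gives about 1 in 20 for independent groups without ties. These groups share birds across genes and can hold ties at 0 reads, so the 2 rates cannot be compared. House Sparrow female 3 gave 4 of the 7, as the highest of the House Sparrow females. It had a log2 CPM of 6.23 for CEP89 where the next bird had 3.60, 4.90 for MRPL24 where the next had 2.38, 2.39 for MCM5 where the next had 0.24, and 0.65 for SLC37A2 where the others were at 0 reads (-1.55). Eurasian Tree Sparrow female 3 was the lowest of its group for DNMT1 at -1.55, which is 0 reads, where the next bird had -0.17. House Sparrow male 4 was the highest of its group for NDC1 at 3.59, where the next had 2.94. Among the 8 other species means, Barn Swallow was the lowest for CEP89 at 5.14, where the next had 5.62.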

How the results depend on the processing

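The number of called genes depended on the test and on single species. Against 20 calls (3 higher, 17 lower), limma with an intensity trend gave 12 (0 higher), limma on 5 family means 6 (0 higher, 6 lower), edgeR on counts summed per species 4 (0 higher, 4 lower) and DESeq2 on the same sums 225 (58 higher, 167 lower). edgeR with birds as units, whose error is the spread between birds and not between species, gave 5807 (2636 higher, 3171 lower). Scaling by library size alone and males alone each left 1 call higher. Leaving out each species gave 8 to 87 calls, with 1 to 3 higher and 7 to 86 lower: 87 without Eurasian Tree Sparrow, 13 without American Robin, 12 without Barn Swallow, 9 without Prothonotary Warbler, 14 without Yellow Warbler (11 lower), and 8 without Carolina Wren, Eastern Bluebird or House Wren; the cause was not tested.

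Against 605 genes separated higher and 502 lower, a gap of at least 1 gave 12 and 29, and birds in place of species means 9 and 15. Leaving out each species gave 627 to 1243 higher and 569 to 1381 lower, since fewer means must then lie on a side. Scaling by library size alone gave 406 higher and 551 lower, so that 42.4% of separated genes were higher against 54.7%, and moved the median of all genes from 0.02 to -0.05. Without House Sparrow female 3 the counts were 626 and 501. OLFM3, SLC37A2 and CLASP1 stayed called in all 16 settings in which single genes were followed, and the other 15 called genes with a symbol lost the call in at least 1. None of 145 genes followed changed direction, but all were chosen as separated, so leaving out 1 species could hardly reverse them.

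For the sex by sparrow test leaving out species gave 0 to 14 calls, 14 of them without Eurasian Tree Sparrow. Replicate numbers do not pair birds: of 9 same-numbered pairs of the 2 sparrow species the correlation ran from -0.55 to 0.16, with 2 over 0.1. With a replicate block, edgeR with birds as units called 5411 genes (2553 higher, 2858 lower), the sparrow species differed in 3939 genes against 5084 without it, and the sexes in 256 against 395.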
